A study of Mus musculus with 2 samples.

Results

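Activated T cells were picked from 2 droplet-based single-cell transcriptome libraries of lung leukocytes by a count rule, which 242 of 6621 retained barcodes met. A barcode was retained with at least 200 detected genes and at most 10% mitochondrial counts. It was called an activated T cell when it held at least 1 unique molecular identifier (UMI, the count of 1 captured transcript) in at least 2 of the 5 T cell genes Cd3d, Cd3e, Cd3g, Trac and Trbc2, and in at least 2 of the 6 activation genes Pdcd1, Icos, Ctla4, Tnfrsf4, Tnfrsf18 and Cxcr6. Barcodes with 10 or more UMIs of the macrophage genes C1qa, C1qb, C1qc and Ms4a7 summed were left out. Of the 242 cells, 233 came from the distal library (of 3540 retained barcodes) and 9 from the niche library (of 3081).

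Both libraries came from female Balb/c mice whose lungs were taken 7 days after Labelling-4T1 cells, a 4T1 mammary carcinoma line, had been given by vein, and all mice carried metastases and belonged to that 1 strain. One library was titled distal lung immune cells and the other niche immune cells, each sorted by fluorescence after tissue dissociation. How many mice were used per library, and how the sort was gated, was not stated in the labels used here. With 1 library per group no difference between them has a replicate check, so no p-value is given and all intervals below are exact 95% intervals that cover counting error only.

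T cells carry a receptor whose CD3 subunits (Cd3d, Cd3e, Cd3g) and constant chains (Trac, Trbc2) are transcribed throughout the lineage. After antigen contact, T cells raise the costimulatory receptors Icos, Tnfrsf4 (OX40) and Tnfrsf18 (GITR), the inhibitory receptors Pdcd1 (PD-1) and Ctla4, and Cxcr6, a chemokine receptor of tissue-dwelling effector cells. Regulatory T cells, defined by the transcription factor Foxp3, keep Ctla4, Tnfrsf18 and Tnfrsf4 high, so a rule built on these genes takes in effector and regulatory cells alike.

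The distal matrix held 3945 barcodes and 22323465 UMIs and the niche matrix 3242 barcodes and 38036915 UMIs, with medians of 5794.5 and 11197 UMIs per retained barcode. Headers named software version 3.0.2 for the distal and cellranger-6.0.0 for the niche matrix, so software and group cannot be told apart. The libraries shared 4 barcodes, and 0 of them were activated T cells. Macrophage droplets, with 10 or more UMIs of the C1q genes and Ms4a7 and fewer than 2 T cell genes, made up 12.2% of retained distal and 66.2% of retained niche barcodes.

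Activated T cells were 6.58% of retained distal barcodes (5.79% to 7.45%) and 0.292% of retained niche barcodes (0.134% to 0.554%), a niche over distal ratio of 0.0444 (0.0200 to 0.0857). The sort can set such a share, and most niche barcodes were macrophage droplets. Among T cell droplets alone, those with fewer than 10 macrophage UMIs, activated cells were 55.7% in the distal library (50.8% to 60.6%) and 18.4% in the niche library (8.76% to 32.0%), a ratio of 0.330 (0.149 to 0.636). The remaining T cells, with at most 1 activation gene, numbered 185 in the distal and 40 in the niche library, and their share of retained barcodes had a ratio of 0.248 (0.172 to 0.351). The macrophage limit removed 160 of 209 niche and 38 of 456 distal T cell droplets. Droplets with T cell genes, 2 or more activation genes and 10 or more macrophage UMIs numbered 15 (0.424%) in the distal and 55 (1.79%) in the niche library, a ratio of 4.21 (2.35 to 8.03). Counted with any amount of macrophage RNA, activated T cell droplets were 248 (7.01%) in the distal and 64 (2.08%) in the niche library, a ratio of 0.297 (0.222 to 0.392). Over all T cell droplets, whatever their macrophage RNA, activated ones were 54.4% in the distal (49.7% to 59.0%) and 30.6% in the niche library (24.4% to 37.4%), a ratio of 0.563 (0.421 to 0.744), and at 1500 UMIs per barcode 35.6% and 9.02%. The niche share thus depended on where the macrophage limit was set and on depth. As a share of retained barcodes, activated droplets with 10 or more macrophage UMIs were more frequent in the niche library. On that scale all T cell droplets with 10 or more macrophage UMIs had a ratio of 4.84 (3.38 to 7.09). Macrophage droplets had a ratio of 5.43 (4.89 to 6.03). In the other counts of activated cells given here the niche share lay below the distal share. How the 55 niche droplets came to hold both RNAs was not tested, and their median depth was 21311 UMIs, against 12798 in niche macrophage droplets.

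**Figure D1:**
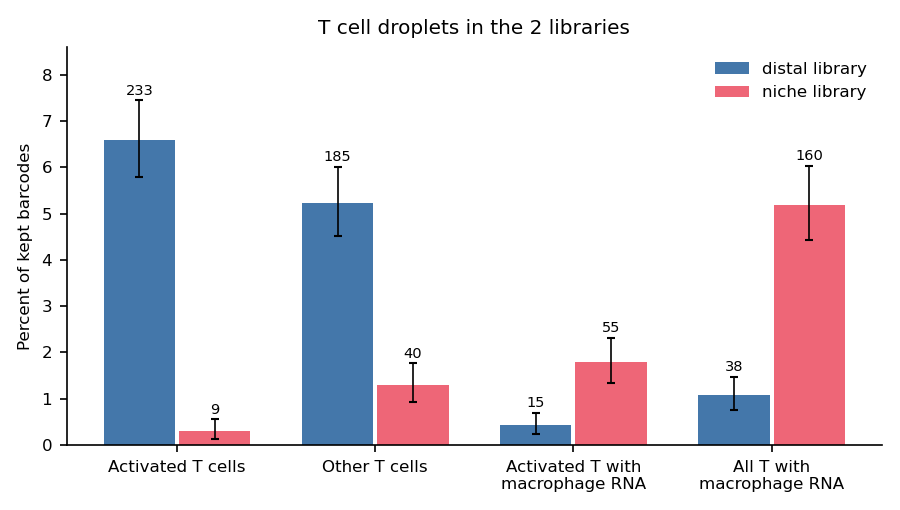
Percent of retained barcodes (y axis) in each T cell class of the distal (blue) and niche (red) libraries, with exact 95% binomial intervals as error bars and the number of barcodes above each bar. Activated T cells stand at 6.58% distal and 0.292% niche, whereas activated T cell droplets with 10 or more macrophage UMIs stand at 0.424% and 1.79%.

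Depth entered the rule, because a deeper cell has more chances to show a gene. Distal activated T cells had a median of 5125 UMIs (867 to 27787), other distal T cells 2724, and the 9 niche cells 7431 (1996 to 13858). When every barcode was thinned to 1500 UMIs, which left out 450 distal and 337 niche barcodes, activated T cells were 4.08% of the distal and 0.188% of the niche library. At that depth the share of T cells that were activated was 36.2% and 11.7%. Just outside the threshold, 76 distal T cells held 1 activation gene, at a median depth of 2868.5 UMIs, and just inside it 80 held 2, at 2968 UMIs. Cells with 4 or 5 of the 6 genes were deeper, with medians of 7145 UMIs (56 cells) and 10394 UMIs (33 cells). Of the distal cells, 7 were just inside the T cell threshold with 2 of the 5 T cell genes and 151 held all 5. No UMI of the 4 macrophage genes was found in 216 of the 233, the largest sum was 7 UMIs, and the nearest distal T cell with 2 activation genes outside the limit held 15.

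The 6 activation genes chose these cells, so their values are a description. Icos was found in 78.5% of the distal activated T cells at 313 CPM (counts of the gene per 1e+06 UMIs, summed over the cells), against 14.1% and 61.8 CPM in other distal T cells. Ctla4 was found in 56.7% at 303 CPM, against 2.70% and 7.72 CPM. Pdcd1 was found in 42.5% at 235 CPM, against 0.541% and 1.29 CPM. These 3 receptors of the CD28 family lie on chromosome 1, Ctla4 at 60887000 to 60915832, Icos next to it at 60977927 to 61000320 and Pdcd1 at 94038305 to 94052553 (GRCm38). Tnfrsf18 was found in 60.5% at 228 CPM, against 17.8% and 52.7 CPM. Tnfrsf4, its neighbour on chromosome 4 (Tnfrsf4 at 156013843 to 156016612, Tnfrsf18 at 156026164 to 156028895), was found in 39.1% at 275 CPM, against 2.70% and 9.01 CPM. Cxcr6, on chromosome 9 at 123806475 to 123811760, was found in 52.4% at 307 CPM, against 3.24% and 16.7 CPM. In the 237 distal B cell droplets (median 2639 UMIs), which should lack these receptors, Icos and Pdcd1 were found in 0 cells, Ctla4 in 2.11% and Tnfrsf18 in 5.49%. Tnfrsf4 and Cxcr6 were also detected there, and 7 of the 237 droplets held Ctla4, Tnfrsf4 or Cxcr6.

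Of the T cell genes of the rule, Cd3g was found in 95.7% of the distal activated T cells, Trbc2 in 95.3%, Cd3d in 91.4%, Cd3e in 86.7% and Trac in 81.5%. The T cell label also held on markers that the rule did not use: Cd2, Lck, Lat and Cd5 were all detected. The activation genes came in unequal combinations. Icos with Tnfrsf18 was the pair present in the largest number of distal cells (111 of 233, 47.6%), followed by Icos with Ctla4 (102, 43.8%), while Tnfrsf4 with Cxcr6 was the rarest pair (27, 11.6%). All 6 genes were present in 9 distal cells.

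Foxp3, Cd4 and Cd8 transcripts, which the rule did not use, divided the distal activated T cells into several kinds. Foxp3 was found in 50 cells (21.5%, interval 16.4% to 27.3%), against 3 of 185 other T cells (1.62%), 0 of 237 B cell droplets and 0 of 432 macrophage droplets. Cd4, the coreceptor of helper and regulatory T cells, was found in 69 cells (29.6%, 23.8% to 35.9%), against 17.3% of other T cells, 0.844% of B cell droplets and 6.02% of macrophage droplets. Cd8a or Cd8b1, the chains of the cytotoxic T cell coreceptor, were found in 74 cells (31.8%, 25.8% to 38.2%), 56 of which held both chains, against 42.2% of other T cells and 0.422% of B cell droplets. Median depths were 5125 UMIs in the activated T cells, 2724 in other T cells, 2639 in B cell droplets and 7751.5 in macrophage droplets. At 1500 UMIs per cell, with 10 of the 233 cells left out, Foxp3 was found in 8.88% of activated T cells against 0.79% of other T cells, Cd4 in 10.9% against 9.58%, and Cd8a or Cd8b1 in 26.5% against 32.3%. With the cells still called at full depth, Foxp3 was thus found more often in activated T cells at 1500 UMIs, whereas the Cd4 shares lay close together. The rule picks on Ctla4, Tnfrsf4 and Tnfrsf18, which regulatory T cells keep high, so it favours Foxp3 cells. The part of the rule in the Foxp3 difference was not tested.

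The cells were sorted into 4 classes by these genes. The Foxp3 class (Foxp3 and no Cd8) held 46 cells (19.7%), the Cd8 class (Cd8a or Cd8b1, no Cd4 and no Foxp3) 68 cells (29.2%), and the class with Cd4 but no Foxp3 or Cd8 46 cells (19.7%). The remaining 73 cells (31.3%) comprised 67 in which none of the 4 genes was seen, with a median depth of 2483 UMIs, and 6 with Cd8 beside Cd4 or Foxp3. Median depths were 5147 UMIs in the Foxp3 class, 8113 in the Cd8 class and 5659 in the Cd4 class. Only 20 of the 46 cells of the Foxp3 class held Cd4, so absence of Cd4 at this depth does not place a cell outside the helper lineage.

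The 6 activation genes, which chose the cells, were divided among the classes. Each cell had to hold at least 2 of them, so a cell that lacked some could enter only through the others. The part of the rule in this division was not tested. Pdcd1 and Cxcr6 were higher in the Cd8 class: Pdcd1 stood at 393 CPM (347 to 445) in Cd8 cells, 140 in Foxp3 cells, 155 in Cd4 cells and 74.4 in the remaining cells. Cxcr6 stood at 483 CPM (431 to 540) in Cd8 cells, 80.6 in Foxp3 cells, 182 in Cd4 cells and 294 in the remaining cells. Ctla4, Tnfrsf4 and Tnfrsf18 had the opposite order. Ctla4 stood at 763 CPM (671 to 864) in Foxp3 cells and 102 (79.1 to 130) in Cd8 cells. Tnfrsf4 stood at 682 CPM (595 to 779) in Foxp3 cells and 15.5 (7.43 to 28.5) in Cd8 cells, where 5 of 68 cells held it. Tnfrsf18 stood at 471 CPM in Foxp3 cells and 54.2 in Cd8 cells, with the Cd4 class between them at 273. Icos was also higher in Foxp3 cells (468 CPM) than in Cd4 cells (344) and Cd8 cells (152), with a log2 ratio of Foxp3 over Cd8 cells of 1.62 (1.25 to 2.01), and was found in at least 73.5% of the cells of each class.

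**Figure D2:**
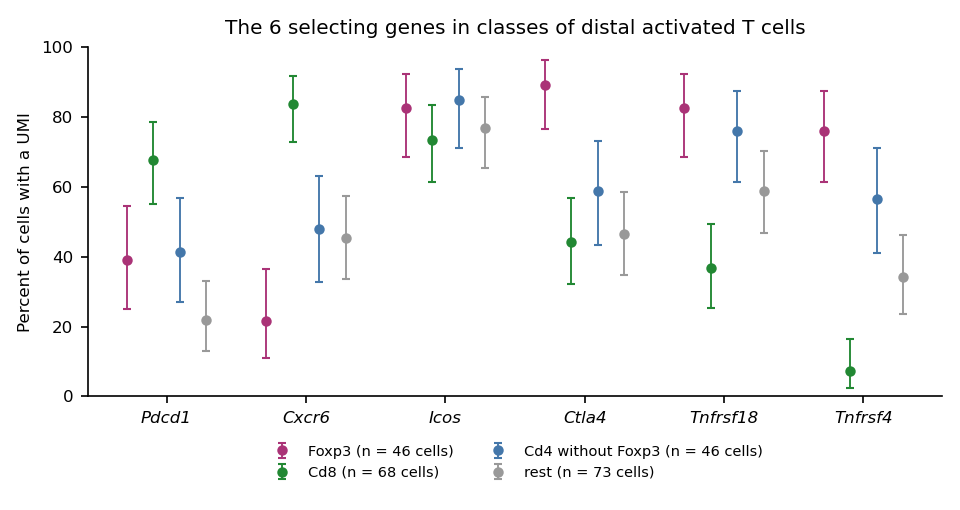
Percent of cells with at least 1 UMI (y axis) of each of the 6 activation genes (x axis), which also chose the cells, in the 4 classes of distal activated T cells. Bars are exact 95% binomial intervals. Pdcd1 and Cxcr6 are found most often in the Cd8 class (67.6% and 83.8%), and Ctla4 and Tnfrsf4 in the Foxp3 class (89.1% and 76.1%).

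Regulatory T cell genes were higher in Foxp3 than in Cd8 cells. Compared with Cd8 cells over 5155 measured genes, of which 11% were at least 2-fold higher and 5.51% at least 2-fold lower with a median log2 ratio of 0.08, all 10 measured genes of a regulatory T cell list other than Foxp3 had a ratio above 0. Of these, 7 were at least 2-fold higher, and the list's median log2 ratio was 2.01. Ikzf2 (Helios), a transcription factor of regulatory cells, stood at 899 CPM (799 to 1009) in 42 of 46 Foxp3 cells, against 71.3 CPM in Cd8 cells. Il2ra, the interleukin 2 receptor alpha chain, stood at 149 against 32.5 CPM, and Izumo1r, the folate receptor 4 of regulatory cells, at 220 against 21.7 CPM. Maf, a transcription factor of interleukin 10 producing cells, stood at 332 against 12.4 CPM. Klrg1, a receptor of terminally differentiated cells, was found in 14 Foxp3 cells at 155 CPM and in 1 Cd8 cell at 3.10 CPM. Il10, which encodes the suppressive cytokine, was found in 10 Foxp3 cells at 121 CPM and in 0 of 68 Cd8 cells. Tnfrsf9 (4-1BB) stood at 245 against 143 CPM.

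A part of the genes higher in the Foxp3 class came from single droplets. All 235 S100a9 UMIs and 96.8% of the S100a8 UMIs of that class were in 1 cell, which held 95.8% of the 426 neutrophil marker UMIs of the class. Of the Cd74 UMIs of the class, which encode the invariant chain of MHC class II, 57.7% were in 1 cell. Macrophage marker genes summed to 2490 CPM in Foxp3 cells and 680 CPM in Cd8 cells, with 13 and 12 of 13 markers detected, and their part in the difference was not tested. Without cells holding 10 or more UMIs of Lyz2 or of Cd74, the median of the regulatory list was 2.39.

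Cytotoxic genes were higher in Cd8 than in Foxp3 cells, with Gzmb as the exception. Of 15 measured genes of a cytotoxic list, 14 were at least 2-fold lower in Foxp3 than in Cd8 cells, with a median log2 ratio of -3.32 (-2.84 with genes at 0 placed at their bound). Ccl5, a chemokine stored by cytotoxic cells, stood at 2765 CPM (2639 to 2897) in Cd8 cells and 112 CPM in Foxp3 cells. Xcl1, the chemokine that attracts cross-presenting dendritic cells, stood at 809 CPM in 32 Cd8 cells, against 1 UMI in Foxp3 cells. Nkg7, a granule protein, stood at 1707 CPM in 65 of 68 Cd8 cells and at 664 CPM in 19 of 46 Foxp3 cells. The natural killer cell receptors Klrd1, Klrc1 and Klrk1 had 435, 256 and 251 CPM in Cd8 cells and no UMI in Foxp3 cells, so that they were at least 46.8-fold, 27.5-fold and 27.0-fold lower there against a floor of 3 UMIs per class. Reads of Klrc1 and its close copy Klrc2 may have been split between them. Fasl, the death ligand, was at least 7.16-fold lower. Prf1 (perforin) stood at 234 CPM in 34 Cd8 cells, and its 16 UMIs in the Foxp3 class were all in 1 cell.

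Gzmb (granzyme B) stood at 564 CPM in 42 of 68 Cd8 cells and 825 CPM in the Foxp3 class. There 79.3% of its 266 UMIs came from 1 of the 13 cells that held it. The same holds for the chemokines Ccl4 and Ccl3, for which 1 Foxp3 cell gave 89.6% and 97.4% of the class's UMIs. Ifng (interferon gamma) stood at 204 CPM (171 to 243) in 38 Cd8 cells, 142 in Cd4 cells and 37.2 in Foxp3 cells. Among the 10 measured inhibitory receptors, 5 were at least 2-fold lower and 1 (Klrg1) at least 2-fold higher in Foxp3 than in Cd8 cells, with a median of -1.15. Havcr2 (TIM-3) stood at 75.9 CPM in Cd8 and 27.9 CPM in Foxp3 cells, and Lag3 at 113 and 55.8 CPM, while Tox, a transcription factor of chronically stimulated T cells, had 89.9 and 112 CPM. The 23 cell cycle genes had a median of 0.11, with 1 gene (Mcm3) at least 2-fold lower in Foxp3 cells.

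The Cd4 class without Foxp3 carried helper ligands. Cd40lg, the CD40 ligand through which helper cells act on B cells and dendritic cells, was found in 15 of 46 cells at 97.8 CPM (65.5 to 140), against 9.30 CPM in Foxp3 and 3.10 CPM in Cd8 cells. Tnfsf11 (RANKL) stood at 64.1 CPM, against 0 and 7.75 CPM. Cd200 stood at 97.8 CPM, against 12.4 and 35.6 CPM, and Lag3 at 159 CPM in 13 cells. Tnfrsf4 (411 CPM) and Ikzf2 (378 CPM) lay between the values of the Foxp3 and Cd8 classes. Since a Foxp3 cell without a captured Foxp3 UMI falls into this class, its Ikzf2 level does not separate the kinds.

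The remaining 73 cells were shallow and mixed. Cd40lg was found in 21 of them at 91.3 CPM. Klf2 (605 CPM) and Il7r (284 CPM), transcripts of resting and memory cells, were higher in them than in Foxp3 (264 and 62.0), Cd8 (105 and 75.9) and Cd4 (94.4 and 121) cells. Macrophage and dendritic cell RNA was also highest in them. Macrophage markers summed to 4450 CPM (2490 in Foxp3, 680 in Cd8 and 2627 in Cd4 cells) and dendritic cell markers to 3865 CPM (2096, 479 and 1413). Neutrophil markers (1321 CPM, 95.8% in 1 cell) and B cell markers (465 CPM) were highest in Foxp3 cells instead, and natural killer cell markers (725 CPM) in Cd8 cells. The remaining cells had 132, 379 and 697 CPM of these. Of the 29 distal activated cells with 10 or more UMIs of Lyz2 or of Cd74, 12 were in this class. Without those 29 cells Klf2 stood at 634 CPM (526 to 758) and Il7r at 370 CPM (288 to 468) in the remaining cells, and the other classes had at most 322 CPM of Klf2 and 118 CPM of Il7r. All 8 gamma delta T cell markers were detected among them, in 14 of 73 cells at 392 CPM summed, with 31.0% of these UMIs in 1 cell. In the Cd8 class 3 of the 8 markers were detected, in 12 of 68 cells at 31.0 CPM summed. Blk, 1 of the 8, was the only marker of this list found in distal B cell droplets (24.5% of them). Trdc, the constant gene of the delta chain, was found in 7 of the remaining cells at 176 CPM. Il17a was seen in 2 of these cells and in 1 Cd8 cell. One cell of this class held 1634 of its 1647 epithelial marker UMIs, which were 17.7% of that cell's UMIs. Markers of type 2 innate lymphoid cells were highest in the remaining cells, at 595 CPM in 50 of 73 cells. They summed to 484 CPM in Foxp3, 144 in Cd8 and 391 in Cd4 cells. All 11 were detected in distal activated T cells, at 347 CPM against 96.5 in other T cells. Some, such as Areg and Gata3, are also in the T cell lists used here, and which cells they mark was not tested.

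**Figure D3:**
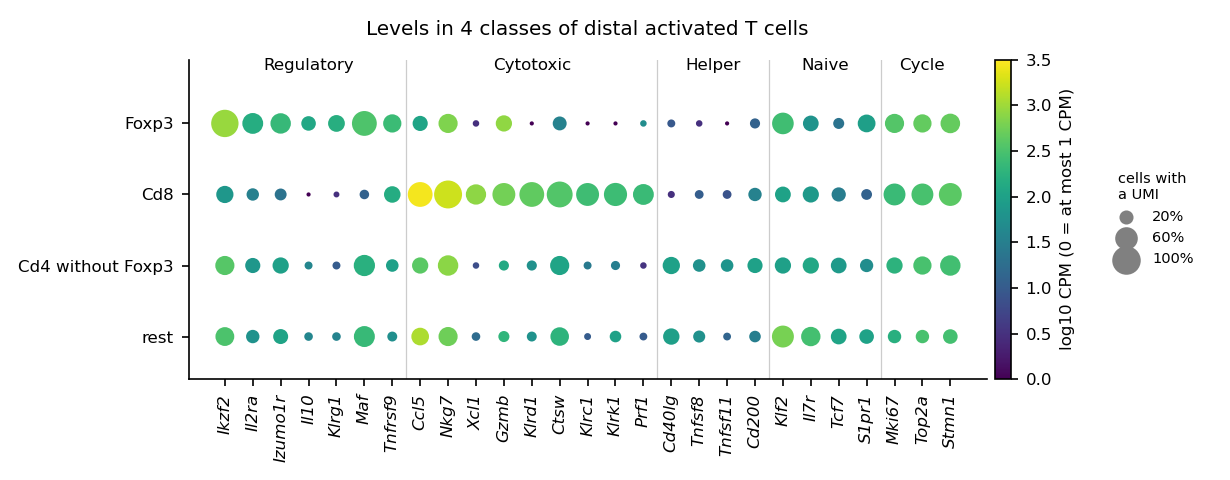
Levels of named genes (x axis) in the 4 classes of distal activated T cells (y axis): color is log10 CPM, with 0 for 1 CPM or less, and dot area grows with the percent of cells that held a UMI. Ikzf2 stands at 899 CPM in the Foxp3 class, Ccl5 and Xcl1 at 2765 and 809 CPM in the Cd8 class, and Cd40lg at 97.8 CPM in the Cd4 class.

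Against the 185 other T cells of the same distal library, activated T cells had lower transcripts of naive and recirculating cells. Over 7903 measured genes, 9.54% were at least 2-fold higher and 10.6% at least 2-fold lower in activated cells, and the median log2 ratio was 0.04. Of 16 naive and central memory genes, 14 were at least 2-fold lower, with a median of -1.82. Lef1, a transcription factor of naive T cells, stood at 34.0 CPM (25.4 to 44.4) against 268 (232 to 307). Ccr7, the lymph node homing receptor, stood at 67.9 against 398 CPM. Igfbp4, a transcript of naive cells, stood at 8.33 against 248 CPM. Klf2 stood at 231 against 817 CPM and its target S1pr1, the receptor for exit from tissue, at 53.8 against 196 CPM. Bcl2, a survival factor, stood at 75.0 against 396 CPM. The exceptions were Bach2 (-0.56) and Ramp1 (0.34). Among droplets of 2000 to 5000 UMIs alone, the list's median was -1.70.

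Regulatory, cytokine and cytotoxic genes were higher in activated T cells, with exceptions. Of 15 measured regulatory T cell genes, 9 were at least 2-fold higher and 0 lower, with a median of 1.61. Ikzf2 stood at 349 against 46.3 CPM and Il2ra at 69.2 against 6.43 CPM. Areg (amphiregulin), a growth factor of tissue repair, stood at 108 CPM in 28 cells, against 1 UMI in other T cells. Of 12 measured cytokine and chemokine genes, 7 were at least 2-fold higher, with a median of 1.35: Ifng stood at 158 CPM (139 to 179) in 69 cells against 28.3 (17.7 to 42.9), Il10 at 40.4 CPM in 16 cells against 2 UMIs in 1 cell, and Xcl1 at 340 against 24.4 CPM. Of 15 cytotoxic genes, 9 were at least 2-fold higher, with a median of 1.20 that was 0.61 when each cell counted equally and 0.56 among droplets of 2000 to 5000 UMIs. Nkg7 stood at 1095 against 352 CPM and Gzmb at 465 against 33.4 CPM, with 29.1% of the Gzmb UMIs in 1 cell. Ccl5 did not differ beyond counting error, at 1465 (1405 to 1526) against 1495 CPM (1410 to 1583).

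Inhibitory and costimulatory receptors outside the rule differed unevenly. Of 11 measured inhibitory receptors, 6 were at least 2-fold higher and 1 (Lilrb4a, a myeloid receptor as well) lower, with a median of 1.02. Lag3, a CD4-like receptor for MHC class II, was found in 57 activated cells at 93.6 CPM (79.0 to 110) and in 2 other T cells at 2 UMIs. Havcr2 stood at 46.8 against 10.3 CPM and Cd200 at 41.7 against 3.86 CPM. Cd160 stood at 35.3 against 5.15 CPM. Of 10 measured costimulatory genes, 2 were at least 2-fold higher, Tnfrsf9 (138 CPM in 50 cells, against 2 UMIs) and Tnfsf11, with a median of 0.33. Cd40lg (-0.21), Cd28 (0.34) and Cd27 (0.32) differed by less than 2-fold.

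Of 19 transcription factors of activation and exhaustion, 7 were at least 2-fold higher and 3 lower, with a median of 0.37. Tox stood at 91.7 CPM (77.2 to 108) against 20.6 (11.8 to 33.4), Irf4 at 31.4 against 3.86 CPM, and Rbpj, the nuclear effector of Notch signalling, at 162 against 38.6 CPM. Batf, a partner of Irf4, stood at 104 against 51.5 CPM. Id3, found in naive and memory precursor cells, stood at 8.97 against 46.3 CPM. The chemokine receptor Cxcr3 was found in 141 of 233 activated cells (60.5%) and 13.5% of other T cells, and in 27.6% against 8.56% at 1500 UMIs per cell. The interleukin 2 receptor beta chain Il2rb stood at 113 against 28.3 CPM, while Il7r stood at 121 against 358 CPM. Migration and cytoskeleton genes of effector memory cells were higher for some members: 5 of 16 were at least 2-fold higher, with a median of 0.70 (1.59 among droplets of 2000 to 5000 UMIs). Lgals1 (galectin 1) stood at 3446 against 656 CPM and S100a4 at 1194 against 289 CPM, whereas Anxa1 was lower (-1.07). Of 10 helper lineage regulators, Tbx21 (T-bet) and Maf were at least 2-fold higher, with a median of 0.50. Of 15 chemokine receptors and integrins, Cxcr3 and Itgb1 were (median 0.40), and of 17 cytokine receptors 5 were higher and 5 lower (median -0.06).

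**Figure D4:**
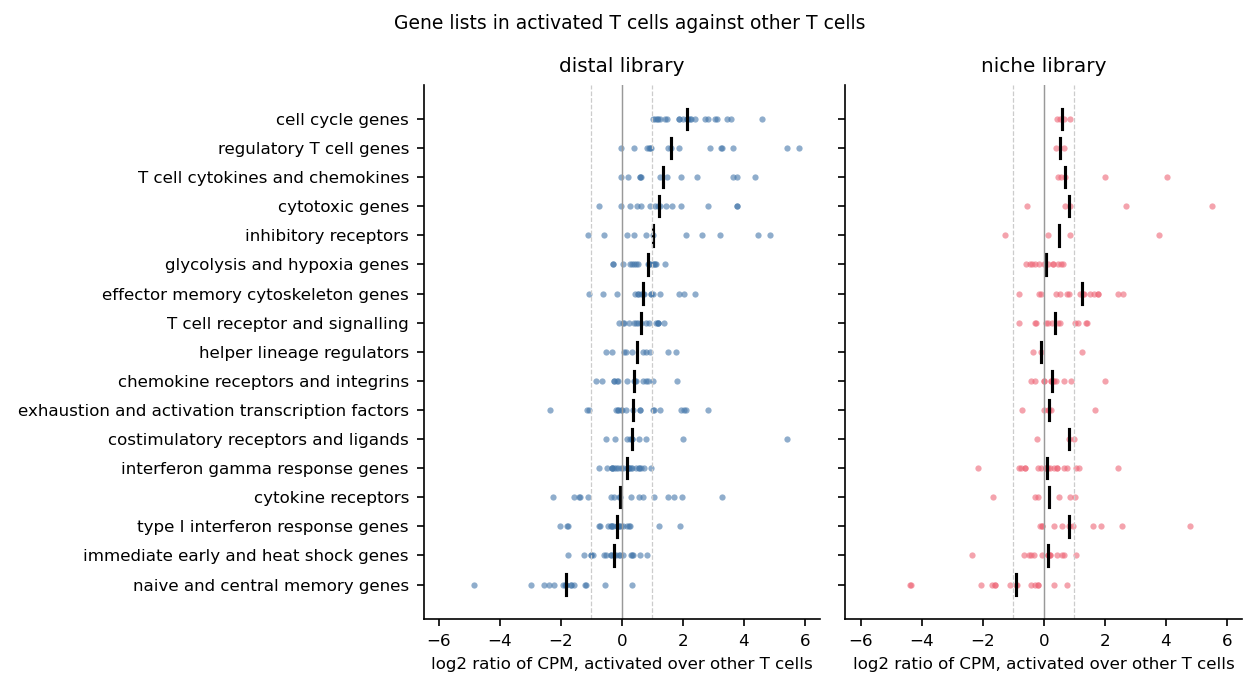
Log2 ratio of activated over other T cells (x axis) in the distal and niche libraries for each measured gene of 17 gene lists (points), with each list's median as a black bar and dashed lines at 2-fold. In the distal library the cell cycle list has a median of 2.14 and the naive and central memory list of -1.82, beside 0.04 for all genes.

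Cell cycle genes were higher in activated T cells, by less where droplets of like depth were compared. All 23 were at least 2-fold higher, with a median of 2.14. Mki67 stood at 237 CPM (214 to 263) against 64.3 (47.7 to 84.8), Top2a, the topoisomerase of dividing cells, at 335 against 75.9 CPM, and Ccnb1, the cyclin of mitotic entry, at 108 against 3.86 CPM. Among droplets of 2000 to 5000 UMIs the list's median was 0.58, beside 0.26 for all genes. A UMI of Mki67 or Top2a was found in 102 of 233 activated cells (43.8%, 37.3% to 50.4%), 17 of 185 other T cells (9.19%) and 2.11% of B cell droplets, and the positive activated cells had a median of 8515.5 UMIs. At 1500 UMIs per cell the shares were 27.2% of activated T cells, 5.68% of other T cells and 1.19% of B cell droplets. By class, 64.7% of Cd8 cells, 47.8% of Foxp3 cells, 43.5% of Cd4 cells and 21.9% of the remaining cells were positive, and at 1500 UMIs the Cd8 and Foxp3 classes lay close together at 35.1% and 32.9%. Since a dividing cell also holds more RNA, depth and division cannot be told apart here.

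Of 17 glycolysis genes, 5 were at least 2-fold higher, with a median of 0.85; Ldha, lactate dehydrogenase A, stood at 899 against 421 CPM. Interferon gamma response genes did not stand apart, with 0 of 22 past 2-fold in either direction and a median of 0.18. Type I interferon response genes had 2 higher (Isg20 and Ifi27l2a) and 3 lower (Rsad2, Oasl1 and Oasl2) of 21, with a median of -0.16 that was 0.89 among droplets of 2000 to 5000 UMIs. Of 19 immediate early and heat shock genes 0 were at least 2-fold higher and 4 lower (Atf3, Egr1, Fos and Jun, all immediate early): Jun had 66.7 CPM against 158 and Fos, its partner in AP-1, 280 against 563. The heat shock genes Hsp90aa1 (0.84), Hsp90ab1 (0.58) and Hspa8 (0.31) had log2 ratios above 0. Of the remaining T cell receptor and signalling genes, 5 of 15 were at least 2-fold higher (median 0.64), among them Thy1 at 370 against 170 CPM. That median was 0.08 without droplets holding 10 or more UMIs of Lyz2 or Cd74.

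RNA of other cell types differed between the groups as well. Macrophage markers summed to 2139 CPM in activated and 6489 CPM in other distal T cells, alveolar macrophage markers to 889 and 2518 CPM, and neutrophil markers to 320 and 966 CPM. At least 10 UMIs of Lyz2 or Cd74 were found in 29 of 233 activated (12.4%) and 45 of 185 other T cells (24.3%). Their part in the differences was not tested beyond the values given without these droplets, where the median of all genes was 0.24 and that of the naive list -2.41. Trem2, Cfp, Fn1 and Cidec, among the 15 lowest ratios, are known from myeloid cells.

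The same comparison within the niche library rested on 9 activated and 40 other T cells and 1938 measured genes, of which 7.84% were at least 2-fold higher and 7.38% lower. Of the 1919 genes measured in both libraries, 30 (1.56%) were at least 2-fold higher and 49 (2.55%) at least 2-fold lower in activated T cells in both. Lgals1 stood at 2982 against 1036 CPM in the niche library and was found in all 9 cells. S100a6, a calcium-binding protein, stood at 2057 against 654 CPM there and at 2250 against 612 CPM in the distal library. Nkg7 stood at 925 against 141 CPM, in 5 of the 9 cells, and Cxcr3 at 223 against 54.5 CPM, in 3. Opposite directions in the 2 libraries, beyond the counting interval of each, were found for 35 of the 1919 genes, among them Apoe, the apolipoprotein E of macrophages, at -1.09 in the distal and 2.22 in the niche library. Of its 208 UMIs in the niche activated cells, 1 cell held 141 and another 61. The niche values of Lag3, Gzmb and Ccl3 came mostly from 1 cell each, which held 16 of 21, 30 of 32 and 42 of 44 UMIs. On the lower side, Lef1 had log2 ratios of -2.97 in the distal and -2.07 in the niche library (3 UMIs in 1 cell, interval -4.60 to -0.65), and Igfbp4 was at 0 in the niche cells, at least 3.42-fold lower than in other niche T cells. Of 15 measured naive genes 7 were at least 2-fold lower in the niche cells (median -0.92), and of 16 effector memory cytoskeleton genes 9 were higher (median 1.25). At least 10 UMIs of Lyz2 or Cd74 were found in 3 of the 9 activated and 11 of the 40 other niche T cells. Macrophage markers summed to 8435 CPM in the activated and 5908 in the other cells, and dendritic cell markers to 13106 and 14930 CPM. The part of this RNA in the 2 medians was not tested.

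The 9 niche cells were few enough to read one by one. Cell 1 (1996 UMIs) held Cd4 (2 UMIs), Foxp3 (1), Icos (3) and Ctla4 (3), and was the only one with Foxp3. Cells 2 and 3 (2123 and 2369 UMIs) qualified on Icos and Cxcr6 alone, with 2 UMIs of each in the first and 1 of each in the second, and showed none of Cd4, Cd8 and Foxp3. Cell 4 (5851 UMIs) was a Cd8 cell with 8 UMIs of Cd8b1, 30 of Gzmb and 16 of Nkg7. Cell 5 (7431 UMIs) held all 6 activation genes, with 6 UMIs of Pdcd1 and 16 of Cxcr6, beside Cd4 (3), Lag3 (16) and Nkg7 (24). It also held Il2ra (4) and Ikzf2 (3), the chemokines Ccl3 (42) and Ccl4 (72) and the cytokine Il10 (14), but no Foxp3 UMI. Cell 6 (8228 UMIs) was the second Cd8 cell, with 6 UMIs of Cd8b1, 16 of Nkg7, 4 of Lag3 and 3 of Mki67. These 6 cells held at most 3 UMIs of Cd74 and 1 of Lyz2.

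The 3 deepest niche cells held RNA of antigen-presenting cells. Cell 7 (8784 UMIs) held Cd4 (2), Cxcr3 (7), Cd74 (128) and Lyz2 (21), and all 27 Rsad2 UMIs of the niche activated cells; Rsad2 encodes the interferon-induced viperin. Cell 8 (12078 UMIs) held 309 Cd74, 204 Lyz2 and 141 Apoe UMIs, 39 of Ccl5, and the B cell transcripts Cd79b (6) and Ms4a1 (4), with none of Cd4, Cd8 and Foxp3. Cell 9 (13858 UMIs) held 121 Cd74, 61 Apoe, 27 Fscn1, 18 Ccr7 and 88 Ccl5 UMIs; Fscn1 (fascin) and Ccr7 mark migratory dendritic cells. Fscn1 was at 0 in all 233 distal activated cells. Which kind of cell each of these 3 droplets held besides a T cell was not tested.

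**Figure D5:**
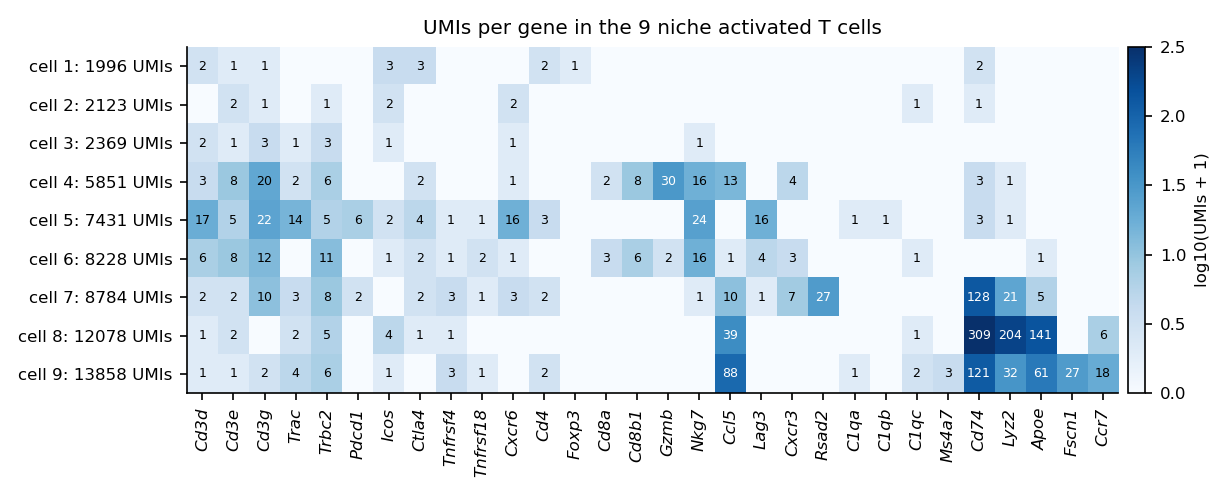
UMIs of T cell, activation, lineage, effector and antigen-presenting cell genes (columns) in each of the 9 niche activated T cells (rows, in order of total UMIs), with color on a log10(UMIs + 1) scale and counts printed. The 3 deepest cells hold 121 to 309 Cd74 UMIs, whereas the other 6 hold at most 3.

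Set against the 233 distal cells, the 9 niche cells had the same 6 activation genes at levels between 79.7 CPM (Tnfrsf18) and 383 CPM (Cxcr6, 16 of 24 UMIs in 1 cell). Icos stood at 223 CPM in the niche and 313 in the distal cells, Ctla4 at 223 and 303, Pdcd1 at 128 and 235, and Tnfrsf4 at 143 and 275. Cd4 was found in 4, Cd8 in 2 and Foxp3 in 1 of the 9 cells. Among the 55 niche droplets that also held macrophage RNA, Cd4 was found in 29.1%, Cd8 in 23.6% and Foxp3 in 18.2%. In the 2040 niche macrophage droplets, which were shallower, Cd4 was found in 2.99%, Cd8 in 0.686% and Foxp3 in 1 droplet.

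Over 6762 measured genes, 15.7% were at least 2-fold higher and 18.6% at least 2-fold lower in niche than in distal activated cells, and 1140 were at 0 in 1 group. Cell cycle genes were lower in the 9 niche cells: 20 of 23 were at least 2-fold lower, with a median of -1.84 (-1.55 with genes at 0 at their bound). Rrm2, a ribonucleotide reductase subunit, had no niche UMI and was at least 4.35-fold lower, and Tyms, thymidylate synthase, at least 2.65-fold lower. Of the 9 niche cells, 2 held a Mki67 or Top2a UMI. Ifng was also at 0 in the 9 cells, at least 3.31-fold below the 158 CPM of the distal cells. T cell receptor and signalling genes had a ratio below 0 for 14 of 15 (median -0.73). Cells 7, 8 and 9, which held RNA of antigen-presenting cells, gave 8784, 12078 and 13858 of the 62718 niche UMIs. These UMIs enter every niche CPM and the floor for genes at 0. Their part in the cell cycle, Ifng and T cell receptor values of this paragraph is not separated.

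Type I interferon response genes were higher in the niche cells for all 19 measured, 13 of them at least 2-fold, with a median of 1.61. Without the cells holding 10 or more UMIs of Lyz2 or Cd74, which left 6 niche and 204 distal cells, that median was -0.31. Macrophage markers summed to 8435 CPM in niche and 2139 CPM in distal activated cells, and dendritic cell markers to 13106 and 1632 CPM. The highest ratios among genes with at least 40 UMIs included Basp1 (494 against 16.7 CPM, 28 of 31 UMIs in 1 cell), Apoe (3316 against 151 CPM, 67.8% in 1 cell), Marcksl1, Tmem176a, Ly86, AB124611 and the MHC class II gene H2-Aa (3460 against 369 CPM). Btg3, an antiproliferative gene, was spread over 6 of the 9 cells at 207 against 19.2 CPM. Of the genes at 0 in the niche cells, Sftpc, Lyz1 and Sftpa1 owed 99.1%, 98.2% and 99.5% of their distal UMIs to 1 cell each (Lyz1 is a close copy of Lyz2, so its counts are uncertain), and Nasp and Tipin, histone and replication factors, were at least 3.70-fold and 2.85-fold lower.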

How the data were processed

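The distal and the niche library, of sorted lung leukocytes, were grouped by their titles. The deposited matrices hold raw counts of UMIs for each gene in each barcode, with no scaling, from software version 3.0.2 (distal) and cellranger-6.0.0 (niche) per the file headers. Cell Ranger 3.02, RSEM, Bowtie2 and Seurat 4.1.1 are named in the submitters' processing notes, as are builds mm10 and GRCm38. The gene lists hold 30149 and 32285 rows. Only the 29413 shared identifiers were used, all found in GENCODE M21, and 442 of these overlap a gene of 1 list on the same strand.

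From these counts, UMIs were summed per class and scaled to CPM. Log2 ratios used 0.5 UMI added to each sum and genes with at least 20 UMIs. A called gene differed at least 2-fold. Intervals are Clopper-Pearson, Poisson or conditional binomial at 95%, and a UMI floor of 3 was used for genes at 0. No test was made, since each group was 1 library. Levels of different genes are not per length, and were ranked only to choose which list members to name. No doublet caller was run. Activated cells with 2 or more B cell genes (4 distal, 1 niche), neutrophil genes (2 distal) or natural killer cell genes (2 distal) were left out as an alternative. Thinning to 1500 UMIs used 20 draws.

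Activated cells and gene lists were chosen with earlier results of these data known. Named genes were those of the rule, Cd4, Cd8a, Cd8b1 and Foxp3, up to 4 members of each list by level and members past 2-fold, the 8 highest and lowest niche over distal ratios with at least 40 UMIs, and the 15 highest and 10 lowest ratios over other T cells in both libraries. The 15 highest and lowest distal ratios, and those of Foxp3 over Cd8 cells, were added after the data were seen. Genes named outside these rules were chosen after their values were seen. Alternatives were other rule thresholds, counts, scalings (edgeR 4.0.16 TMM factors), a Lyz2 and Cd74 limit and a depth window. The work used R 4.3.3, pandas 2.3.3, scipy 1.17.1, numpy 2.4.6 and Python 3.11.15, and the ratio steps were tested on simulated data.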

Additional observations from a re-analysis of the deposited data

Results flagged for a closer look

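In activated over other T cells, 35 of the 1919 genes measured in both libraries had opposite directions, beyond the counting interval of each. Of these, 15 were higher in the distal and lower in the niche library and 20 the reverse. The difference between libraries was not tested, since each group was 1 library. The 10 that belong to a gene list or are named above were all lower in the distal and higher in the niche activated cells. Apoe, a macrophage transcript, had a log2 ratio of -1.09 in the distal library (151 against 322 CPM) and 2.22 in the niche library (3316 against 709 CPM), where 67.8% of its UMIs were in cell 8. Rsad2, which encodes viperin, had a log2 ratio of -1.79 in the distal library (16.7 against 57.9 CPM) and 4.78 in the niche library (430 against 13.6 CPM, the latter from 3 UMIs, interval 3.28 to 7.35), where all 27 UMIs were in cell 7, which also held 128 Cd74 UMIs. Irf7, the transcription factor that amplifies the type I interferon response, had -0.37 (106 against 138 CPM) and 0.84 (510 against 286 CPM). Samhd1, a restriction factor, had -0.32 (375 against 467 CPM) and 0.61 (606 against 400 CPM). Lgals3 (galectin 3), a transcript that macrophages also hold, had -0.61 (583 against 888 CPM) and 1.20 (781 against 341 CPM). B2m, the MHC class I light chain, had -0.13 (2548 against 2797 CPM) and 0.43 (3540 against 2636 CPM). Tmem176a had -0.85 (37.2 against 66.9 CPM) and 2.93 (494 against 63.6 CPM), Basp1 -1.72 and 1.81 (28 of 31 niche UMIs in 1 cell), and Marcksl1 -0.96 and 1.32. Ly6c2, whose reads may be split with its close copy Ly6c1, had -0.56 (106 against 156 CPM) and 0.80 (446 against 259 CPM).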

How the results depend on the processing

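The ratio of activated T cell shares (0.0444 as reported) was 0.297 with no limit on macrophage UMIs and between 0.0213 and 0.0460 over the other alternatives run. The share with Cd4 was 10.9% after thinning, and that with Foxp3 8.88% after thinning and 28.1% among cells with at least 3 of 6 activation genes. Counts of genes past 2-fold depended on the choices. Niche over distal activated cells, the higher count of 1063 was 1682 without cells holding a C1q or Ms4a7 UMI and 383 at 50 UMIs or more, and the lower count of 1260 was 664, 638, 490 with 1 UMI added and 735 under the Lyz2 and Cd74 limit. With TMM factors, which moved the median of all genes from 0.04 to -0.22, 735 were higher and 1708 lower. Activated over other distal T cells, the higher count of 754 was 480 at 50 UMIs or more, 1160 under the Lyz2 and Cd74 limit and 407 in the depth window of 2000 to 5000 UMIs, and the lower count of 840 was 393, 416 and 120, and 501 by the mean of each cell. In both libraries, the higher count of 30 was 13 without cells with a C1q or Ms4a7 UMI, 17 with at least 3 of 6 activation genes, 13 at 50 UMIs or more, 54 by the mean of each cell, 47 under the Lyz2 and Cd74 limit and 3 in the depth window. The lower count of 49 was 10, 18 at 50 UMIs or more, 74 with TMM factors (24 higher), 27 under the Lyz2 and Cd74 limit and 11 in the depth window. Without mitochondrial and ribosomal protein genes 25 were higher and 65 lower in both.

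Of 1174 values of lists and genes under the alternatives, 61 changed sign, and the cause was not tested. Of these, 55 were medians under 2-fold as reported, and 4 of the 55 left the reported interval: the distal type I interferon median (-0.16) was 0.89 in the depth window, the distal costimulatory median (0.33) was -0.20 under the Lyz2 and Cd74 limit, and the niche over distal median of effector memory cytoskeleton genes (-0.20) was 0.26 without cells with a C1q or Ms4a7 UMI and 0.38 under the Lyz2 and Cd74 limit. The other 6 were at least 2-fold as reported. The niche over distal median of type I interferon genes was -0.31 under the Lyz2 and Cd74 limit (1.61 as reported). In the niche library, Gzmb was -1.49 and Ctla2a -1.09 with at least 3 of 6 activation genes (5.51 and 1.81), and Gadd45b -0.18 with at most 5% mitochondrial UMIs (2.25). In the distal library, Selenoh was -0.11 in the depth window (1.56), and Spp1 was 3.72 under the Lyz2 and Cd74 limit (-1.90). The depth window, the Lyz2 and Cd74 limit and the count with no macrophage limit were chosen after seeing the data. No paired analysis was possible because each group held 1 library. The 9 niche cells, 62718 UMIs in all, set a floor of 47.8 CPM for a gene at 0, so that a lower level was not detectable.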
